A study of Mus musculus with 6 samples.

Results

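The 7 genes described here, *Slamf7*, *Tarm1*, *Tm4sf1*, *Scg2*, *Urah*, *Hecw2* and *Cpeb1*, were near 0 in Raw264.7 cells with a control shRNA and were read at about 1 to 113 RPKM (a read density that is corrected for gene length and for library size) in Raw264.7 cells with an shRNA against *Etv5*. They were chosen by their own values in this comparison, from 24786 genes in the table, as genes near 0 RPKM in the control libraries and at about 1 RPKM or more after the knockdown, outside the cytokine and stefin families. Their levels are therefore given as a description, with no test. Raw264.7 is a mouse macrophage line established from a tumour induced by Abelson murine leukemia virus. The labels give the strain as C57BL/6 and the age as postnatal day 21. The study bought the line from ATCC, and whether this strain and age describe the origin of the line was not checked. All 6 libraries came from this line after infection with lentivirus, 3 with the control shRNA (sh-NC, genotype control) and 3 with the shRNA against *Etv5* (sh-*Etv5*). The labels give 24 or 48 h after infection for expression measurements in general, while the study describes the RNA as taken from a stable transfection. Neither the hairpin that was sequenced nor the number of infections behind the 3 libraries of each group is given in the sources used here, so n counts libraries and p-values measure the spread between them. In such bulk samples fewer expressing cells and less RNA per cell cannot be told apart.

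The genes belong to separate systems. SLAMF7 is a surface receptor of the SLAM family, whose members bind mostly to copies of themselves on neighbouring cells and signal through small SH2-domain adaptors, and in macrophages it is known for a part in phagocytosis together with the integrin Mac-1. TARM1 is an activating myeloid receptor of the leukocyte receptor complex that signals through the Fc receptor gamma chain. TM4SF1 is a membrane protein of the L6 family best known from endothelial and tumour cells, and secretogranin II, the product of *Scg2*, is a granin of the dense-core vesicles of neurons and endocrine cells. *Urah* encodes the liver enzyme that hydrolyses 5-hydroxyisourate on the path from urate to allantoin, HECW2 is a HECT ubiquitin ligase of the NEDD4 family, and CPEB1 binds messages in the cytoplasm and controls the length of their poly(A) tails, first studied in oocytes.

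The sequences just before the transcription starts are shown so that genes grouped by the same readout can be compared in a feature that did not choose them. Each is the 250 bases upstream of a RefSeq start on GRCm38.p6, 5′ to 3′ on the gene's strand, and all 7 genes had an entry. Capitals mark matches to the motifs searched for on both strands. In *Slamf7* (chr1:171649000-171649249, minus strand) they mark the AP-1 site. In *Tm4sf1* (chr3:57301989-57302238, minus) they mark an ISRE core on the opposite strand and then an NF-kB site. In *Tarm1* (chr7:3502625-3502874, minus) they mark a TATA box, an ISRE core and a TATA box on the opposite strand. In *Cpeb1* (chr7:81454759-81455008, minus) they mark the CRE core and a TATA box, both on the opposite strand. For *Scg2* only the 30 bases around its full CRE are shown (chr1:79440076-79440105, minus), with the CRE in capitals.
Slamf7: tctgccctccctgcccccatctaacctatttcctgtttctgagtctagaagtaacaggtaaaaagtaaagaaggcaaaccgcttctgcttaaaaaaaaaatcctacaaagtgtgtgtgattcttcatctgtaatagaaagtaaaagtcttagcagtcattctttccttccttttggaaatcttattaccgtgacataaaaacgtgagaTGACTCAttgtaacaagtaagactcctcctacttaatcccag
Tm4sf1: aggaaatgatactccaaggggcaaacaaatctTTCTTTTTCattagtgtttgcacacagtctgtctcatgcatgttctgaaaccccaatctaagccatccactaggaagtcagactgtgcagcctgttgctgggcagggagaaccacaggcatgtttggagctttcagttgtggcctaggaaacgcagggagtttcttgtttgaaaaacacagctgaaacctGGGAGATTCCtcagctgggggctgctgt
Tarm1: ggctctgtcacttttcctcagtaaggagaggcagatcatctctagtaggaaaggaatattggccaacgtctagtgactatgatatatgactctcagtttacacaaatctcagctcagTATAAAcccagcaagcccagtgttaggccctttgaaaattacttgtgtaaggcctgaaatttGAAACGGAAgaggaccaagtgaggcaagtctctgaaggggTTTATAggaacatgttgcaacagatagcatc
Cpeb1: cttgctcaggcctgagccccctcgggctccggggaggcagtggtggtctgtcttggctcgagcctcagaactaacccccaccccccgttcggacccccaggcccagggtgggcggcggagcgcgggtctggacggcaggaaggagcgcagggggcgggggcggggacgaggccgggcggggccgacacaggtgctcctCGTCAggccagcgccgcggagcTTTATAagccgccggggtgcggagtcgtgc
Scg2: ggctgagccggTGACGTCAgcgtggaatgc

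No motif was shared by all 7 genes. The full CRE, TGACGTCA, began 68 bases before the *Scg2* start and was in none of the other 6 genes. Of all 32851 promoters in the table, 1.55% held it. Its shorter core TGACG, which lies within the full CRE, was found in *Scg2*, *Cpeb1* and *Urah* and in 17.8% of all promoters. The match in *Urah* lay only upstream of the second of its RefSeq starts, downstream of the first. Of the 250 bases before that second start, 237 lie in exons of *Urah* in GENCODE.

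The AP-1 motif, TGANTCA, began 42 bases before the *Slamf7* start and was present in 6.75% of all promoters. An NF-kB motif began 28 bases before the *Tm4sf1* start (3.9% of all promoters). The ISRE core, GAAANNGAA, was in *Tm4sf1* and *Tarm1* (7.13%), and the TATA box, TATAAA, in *Tarm1* and *Cpeb1* (12.4%).

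The letters CCGGAA, searched for as an ETS motif (12% of all promoters), and GAGGAAG, for PU.1 (10.6%), were in none of the 7 genes' windows. Nor were those of C/EBP TTGCNNAA (9.56%), of CHOP-ATF4 TGATGNAA (3.45%) or of the E box CACGTG (6.02%). The shorter GGAA, which lies within CCGGAA and GAGGAAG, was not searched for and occurs in every sequence printed above. Such a match or its absence describes these letters in this window and says nothing of binding. Base composition also differed between the genes. The windows of *Cpeb1* and *Hecw2* were 74% and 70% G and C with 25 and 24 CpG, against medians of 52.4% and 6 CpG over all promoters. Those of *Slamf7* (38%, 3 CpG), *Tarm1* (43.2%, 2 CpG) and *Tm4sf1* (48%, 1 CpG) held few CpG. The *Scg2* window, at 48%, held 13 CpG, and the window before the first *Urah* start held 1 CpG at 56.4%. Of the 250 bases, 134 for *Hecw2*, 120 for this *Urah* start and 94 for *Scg2* lie in exons of the same gene in GENCODE, which places a start further upstream. GENCODE also starts *Slamf7* as far as 4036 bases and *Cpeb1* as far as 707 bases upstream of the RefSeq start used here, so the windows and motif distances hold for the RefSeq starts.

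The libraries themselves were close within each group. Over the 10738 genes with at least 1 RPKM in at least 3 libraries, log2 values correlated at 0.9957 to 0.9973 across genes within groups and at 0.9134 to 0.9150 between them. The summed RPKM lay between 320462 and 322949 in sh-NC and between 330454 and 340257 in sh-*Etv5*. Low values shared common ratios between libraries, from which, as an approximation, the depth relative to the first sh-NC library was estimated at 0.994 to 1 in sh-NC and 0.897 to 1.06 in sh-*Etv5*. None of 14 housekeeping genes was listed at 0 in any library. *Etv5* itself was read at 9.18, 9.89 and 9.39 RPKM in sh-NC and at 5.19, 4.91 and 5.28 RPKM in sh-*Etv5*, and it fell by 0.78 on the log2(RPKM + 1) scale with an SE of 0.06 (limma, adjusted p = 2.74e-07).

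The rule that chose the 7 genes also set their groups apart, so the lack of overlap is no result about them. At bounds of 0.2 RPKM or less in every sh-NC library and 1 RPKM or more in every sh-*Etv5* library, 63 of 24786 genes qualified, which is 0.254% of the table, and 6 of the 7 genes were among them. *Hecw2* lay just outside, because its second sh-*Etv5* library was under 1 RPKM. Of the 63, 10 were listed at 0 in all 3 sh-NC libraries, and *Tarm1*, *Slamf7*, *Scg2*, *Tm4sf1* and *Cpeb1* were 5 of these 10. In the opposite direction, 9 genes met the same bounds. The genes nearest to the upper bound were *Ceacam19* and *Otud1*, both with a lowest sh-*Etv5* value of 1.02 RPKM, on the inside and *Optn* and *Calcb*, at 0.962 and 0.957 RPKM, on the outside. At the lower bound, the highest sh-NC values were 0.199 RPKM for *Prss50* and 0.196 RPKM for *Arrdc4* inside and 0.215 RPKM for *Il1b* and 0.222 RPKM for *Upp1* outside.

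**Figure D1:**
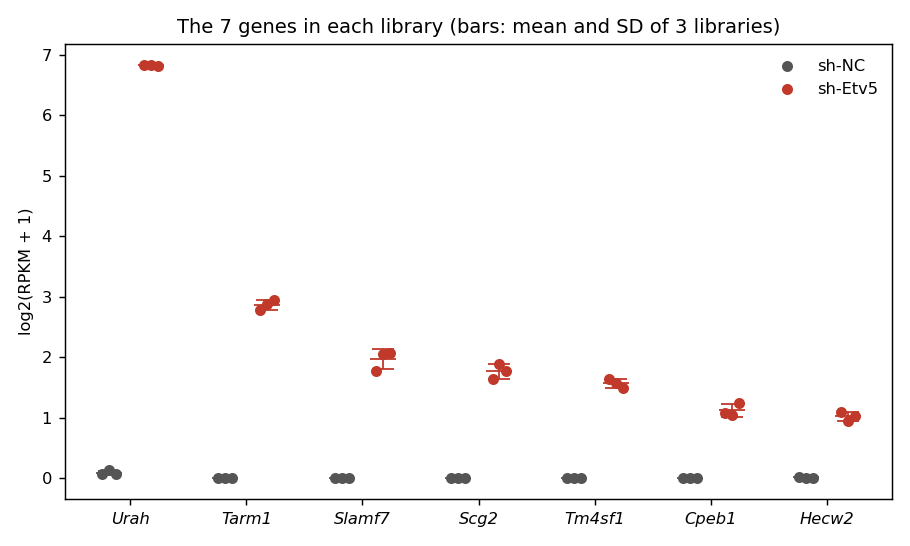
The level of each of the 7 genes in each library, as log2(RPKM + 1). Points are libraries, 3 for each group, and bars give the mean and SD. All sh-NC points lie at or near 0, and the sh-*Etv5* points lie apart from them, highest for *Urah* and lowest for *Cpeb1* and *Hecw2*.

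Among the surface receptors, *Slamf7* (chr1:171632403-171653035, minus strand, GENCODE M21 on GRCm38) was listed at 0 in all 3 sh-NC libraries and read at 2.42, 3.14 and 3.20 RPKM in sh-*Etv5*. The mean of 2.92 ± 0.432 RPKM (SD, n = 3) gave a difference of 1.97 on the log2(RPKM + 1) scale, with the first sh-*Etv5* library below the others. *Tarm1* (chr7:3486500-3502624, minus) was likewise listed at 0 in sh-NC and reached 5.87, 6.37 and 6.67 RPKM in sh-*Etv5*. Its mean was 6.30 ± 0.402 RPKM (SD, n = 3), a log2 difference of 2.87, and its 3 libraries lay close together. After *Urah*, *Tarm1* was the highest of the 7 genes.

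The membrane protein gene *Tm4sf1* (chr3:57285611-57301988, minus) was listed at 0 in sh-NC and read at 2.12, 1.98 and 1.81 RPKM in sh-*Etv5*, with a mean of 1.97 ± 0.156 RPKM (SD, n = 3) and a log2 difference of 1.57. *Scg2*, the gene of the secreted granin (chr1:79434669-79440120, minus), was also listed at 0 in sh-NC, and its sh-*Etv5* values were 2.11, 2.69 and 2.44 RPKM. The mean was 2.41 ± 0.291 RPKM (SD, n = 3) and the log2 difference 1.77. The sh-*Etv5* ranges of *Tm4sf1* and *Scg2* overlapped by a narrow margin.

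*Urah* (chr7:140835018-140837966, plus), the gene of the urate pathway, stood far above the other members. It was read at 0.0519, 0.0955 and 0.0481 RPKM in sh-NC and at 113.1, 113.1 and 112.1 RPKM in sh-*Etv5*, a mean of 112.8 ± 0.556 RPKM (SD, n = 3) and a log2 difference of 6.74. With that mean it ranked 469 of 24786 genes in sh-*Etv5*, in the top 1.89%, and held rank 3 among the 63 genes within the bounds. The 3 sh-*Etv5* values of *Urah* were closer to each other than is usual: their coefficient of variation was 0.493%, below that of all but 16 of the 1001 genes with means of 50 to 200 RPKM, whose median was 3.53%. Of the other 6 genes, *Tarm1*, *Scg2* and *Slamf7* had coefficients of 6.38%, 12.1% and 14.8%, beside a median of 7.1% for genes at 2 to 8 RPKM. Those of *Tm4sf1*, *Hecw2* and *Cpeb1* were 7.9%, 9.87% and 13.4%, beside a median of 14.8% for genes at 0.5 to 2 RPKM.

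The intracellular regulators were the lowest of the set. *Cpeb1* (chr7:81347026-81455465, minus), the poly(A) tail regulator, was listed at 0 in sh-NC and read at 1.12, 1.06 and 1.36 RPKM in sh-*Etv5*, with a mean of 1.18 ± 0.158 RPKM (SD, n = 3) and a log2 difference of 1.12. The ubiquitin ligase gene *Hecw2* (chr1:53806876-54195168, minus) was read at 0.0179, 0.00402 and 0.00675 RPKM in sh-NC and at 1.14, 0.934 and 1.04 RPKM in sh-*Etv5*. Its mean of 1.04 ± 0.102 RPKM (SD, n = 3) gave a log2 difference of 1.01. *Hecw2* alone of the 7 genes missed the filter of 1 RPKM in at least 3 libraries, which the other 6 could pass only through sh-*Etv5*.

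Ordered by their sh-*Etv5* means per length, the genes ran *Urah*, *Tarm1*, *Slamf7*, *Scg2*, *Tm4sf1*, *Cpeb1* and *Hecw2*. The mean of *Urah* was 17.9 times that of *Tarm1*, and that of *Tarm1* 2.16 times that of *Slamf7*, with library ranges apart. The ranges of *Slamf7* and *Scg2*, of *Scg2* and *Tm4sf1* and of *Cpeb1* and *Hecw2* overlapped, so their order was not resolved, whereas *Tm4sf1* lay apart from *Cpeb1*. The 6 genes under *Urah* ranked between the top 28.5% and the top 42.7% of the table in sh-*Etv5*. Their RPKM is small in reads only for some of them, because the gene lengths differ. By the approximate worth of 1 fragment and the length of a main transcript, the 1.04 RPKM of *Hecw2*, whose transcript has 11263 bases, stood for 217 to 243 fragments a library and the 1.18 RPKM of *Cpeb1*, with 3111 bases, for 65.8 to 78.5. In sh-NC the same estimate gave 0.881 to 1.76 fragments for *Urah* and 0.936 to 4.17 for *Hecw2*. Values of about 1 fragment were thus read, and for the 5 genes listed at 0 the files show less than that. By counting error a library at 0 still allows a true level of up to 3 fragments, which corresponded to between 0.0365 RPKM for *Slamf7* and 0.0946 RPKM for *Tarm1*.

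**Figure D2:**
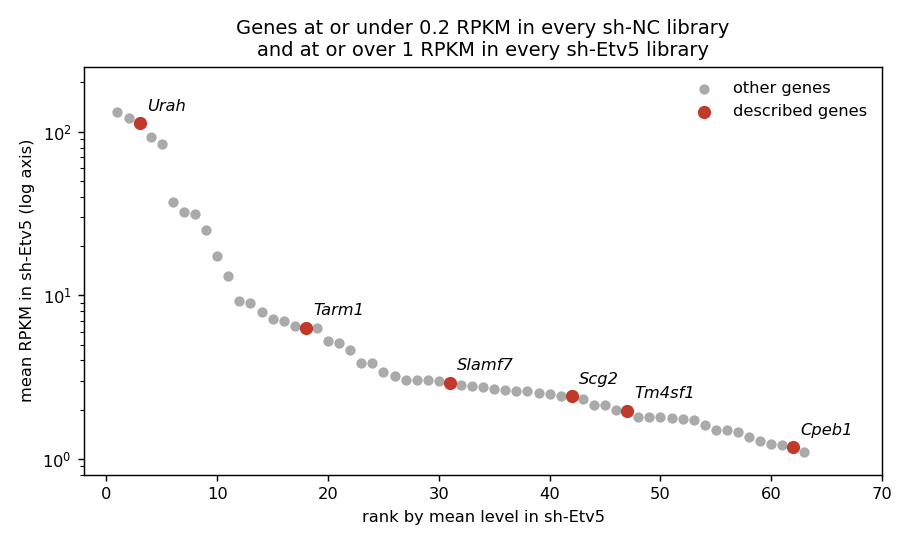
Mean RPKM in sh-*Etv5*, on a log axis, of the 63 genes at or under 0.2 RPKM in every sh-NC library and at or over 1 RPKM in every sh-*Etv5* library, ordered by that mean. The 6 described genes within these bounds, in red, spread over the whole order, from *Urah* at rank 3 to *Cpeb1* at rank 62.

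The genes whose 6 values were most like those of each member, were found by Euclidean distance on the log2(RPKM + 1) scale over the 6 libraries. Nearest to *Urah* were *Csf3*, the granulocyte growth factor, at 121 RPKM in sh-*Etv5* (distance 0.221) and *Lcn2*, the siderophore-binding lipocalin, at 133 RPKM (0.428). Nearest to *Tarm1* were *Il1f6*, an interleukin-1 family cytokine, at 6.30 RPKM (0.251) and *Pdpn*, the podoplanin gene, at 6.96 RPKM (0.261). *Slamf7* lay nearest to the collagen gene *Col14a1* (0.183) and the zinc finger gene *Zfp811* (0.199). *Scg2* lay nearest to *Vegfc*, the lymphatic growth factor gene (0.123), and to *Gstp3* (0.223), and *Tm4sf1* to *2010005H15Rik* (0.149) and the histidine ammonia-lyase gene *Hal* (0.244). For *Cpeb1* the nearest were the formyl peptide receptor gene *Fpr2* (0.14) and *Ifi208* (0.232), and for *Hecw2* *Gimap9* (0.135) and *Dusp8* (0.2). No member was the nearest or second nearest gene of another member. The distances use the same values that chose the members. With sh-NC values at or near 0, they mostly compare levels in sh-*Etv5*.

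For 2 members, other annotated genes share sequence with their exons. *Urah* shares 177 exonic bases, 12.4% of its exonic length, with the antisense gene *C330022C24Rik*, which rose from 0.0166 to 13.1 RPKM (log2 fold change 3.79, SE 0.07, limma adjusted p = 3.7e-12). The library kit that the study names does not mark strand, so reads in the shared bases cannot be told apart, and 8.37% of the 50-base stretches in *Urah* transcripts occur in that neighbour. It met the bounds of 0.2 and 1 RPKM itself, and its sh-*Etv5* mean was far below that of *Urah*. How much of the rise of *C330022C24Rik* came from *Urah* reads in the shared bases was not tested. *Slamf7* shares 423 exonic bases, 9.24%, with the antisense gene Gm37787, which has no row in the table. For *Scg2*, *Tm4sf1*, *Cpeb1*, *Tarm1* and *Hecw2*, 0% of these stretches occurred in another gene's transcripts.

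Position was not used to choose the members, and the genes around them were tested in the limma fit of all genes, where 3575 of 10738 genes (33.3%) were called higher and 4399 (41%) lower at an adjusted p under 0.05. Within 100 kb of a member lay 31 other genes with a row, of which 13 were tested. Of these, 11 (84.6%) were higher in sh-*Etv5*, none was lower and 2 were not called, and 5 were higher by at least 1 on the log2 scale, against 6.23% of all tested genes. The median log2 fold change of the 13 was 0.81, beside -0.05 over all tested genes. The 13 include *C330022C24Rik*, which overlaps *Urah* and passed the filter only through sh-*Etv5*. Without it 10 of 12 were higher, 4 of them by at least 1, with a median of 0.70. The 13 are few and share loci: 5 lie around *Urah*, and *Ly9* and *Cd48* also count among the SLAM family genes below.

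*Slamf7* lies in the SLAM gene cluster between *Ly9*, the gene of another SLAM receptor, 25 kb to its left, and *Cd48*, the gene of a GPI-anchored SLAM ligand, 29 kb to its right. *Ly9* rose from 22.9 ± 0.636 to 78.3 ± 3.12 RPKM (SD, n = 3 in each group; log2 fold change 1.73, SE 0.04, limma adjusted p = 3.69e-11). *Cd48* rose from 1.89 ± 0.44 to 17.0 ± 2.15 RPKM (log2 fold change 2.65, SE 0.11, limma adjusted p = 4.04e-09). Both neighbours were thus already read in sh-NC, where *Slamf7* was listed at 0.

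On the far side of *Urah*, *Ric8a*, a chaperone of G protein alpha subunits, rose from 12.1 to 27.9 RPKM at a distance of 19 kb (log2 fold change 1.14, limma adjusted p = 7.32e-09). The nearest separate genes on each side of *Urah*, *Zfp941* and *Scgb1c1*, had means under 0.1 RPKM in both groups and were not tested. Near *Cpeb1*, the phosphodiesterase gene *Pde8a* rose from 3.51 to 11.2 RPKM at 12.5 kb (1.44, limma adjusted p = 7.66e-09). On the other side of *Cpeb1*, *Ap3b2*, 4.93 kb away, was under 0.1 RPKM on average in both groups and was not tested.

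The other members lay among genes with smaller differences. *Stk17b*, 21.7 kb from *Hecw2*, rose from 11.9 to 13.8 RPKM (log2 fold change 0.20, limma adjusted p = 0.0058), and *Ccdc150* on the other side was under 0.05 RPKM on average in both groups. The nearest genes of *Tarm1*, *Cacng6* and the osteoclast receptor gene *Oscar*, were under 0.05 RPKM on average in both groups and not tested. Further from *Tarm1*, at 70.9 kb, the calcium channel subunit gene *Cacng8* rose from 1.60 to 2.90 RPKM (0.58, limma adjusted p = 1.67e-04). *Gm23450*, a small RNA gene within *Cacng8* on the same strand, rose from 3.85 to 7.47 RPKM (0.81, limma adjusted p = 4.83e-04), and reads of the pair cannot be told apart. Both were named after their values were seen.

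*Scg2* and *Tm4sf1* had no gene with a row within 100 kb. *Ap1s3*, an adaptor subunit gene 167 kb from *Scg2*, rose from 12.2 to 19.6 RPKM (0.65, limma adjusted p = 8e-07). *Gm29536*, 210 kb away on the other side, was listed at 0 in every library. The nearest genes of *Tm4sf1*, *Nbea* at 1100 kb and *Tm4sf4* at 123 kb, were under 0.02 RPKM on average in both groups.

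**Figure D3:**
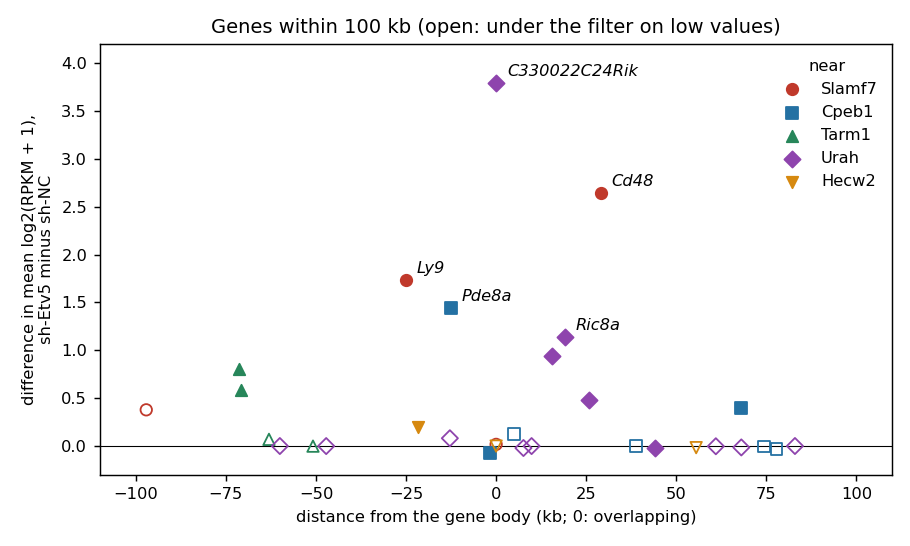
Difference in mean log2(RPKM + 1) between sh-*Etv5* and sh-NC for the genes within 100 kb of 5 of the members, against the distance from the member's gene body in kb. Filled symbols passed the filter of 1 RPKM in 3 libraries. The 5 genes above 1 lie near *Urah*, *Slamf7* and *Cpeb1*, and most open symbols lie near 0.

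The families and partners of the members were listed by function, in 7 lists of 108 genes in all, of which 67 were tested. The lists were made with earlier results of these data known, so their shares are a description. Of these, 35 (52.2%) were higher and 21 (31.3%) lower in sh-*Etv5*, beside 33.3% and 41% of all tested genes, and 11 were not called. Each of the 7 lists held at least 1 gene that was higher by 1 or more on the log2 scale. These were 13 genes in all (19.4%), beside 6.23% of all tested genes. No listed gene was lower by that much, beside 3% of all tested genes. Of the 13, *Vgf* and *Nedd4l* met the bounds of 0.2 and 1 RPKM themselves. Both, and *Itga6*, passed the filter only through sh-*Etv5*. *Itga6* and *Nedd4l* were the only genes higher by 1 or more in the lists of *Tm4sf1* and *Hecw2*. The other 41 of the 108 genes did not pass the filter, and 10 of them were listed at 0 in every library.

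In the SLAM list of *Slamf7*, 7 of 9 tested genes were higher, 2 were lower and 8 were not tested, with a median log2 fold change of 0.30. *Slamf9*, another SLAM receptor gene, rose from 1.53 ± 0.308 to 18 ± 1.25 RPKM (SD, n = 3; log2 fold change 2.91, SE 0.09, limma adjusted p = 2.9e-10). *Itgam*, the alpha chain of the integrin Mac-1, rose from 33.8 to 127 RPKM (1.88, limma adjusted p = 3.2e-11). Together with *Ly9* and *Cd48* these were the 4 largest changes of the list.

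In the list of *Tarm1*, the Fc receptor gamma chain and paired receptors, 7 of 10 tested genes were higher and 3 lower, with a median of 0.64. The paired receptor genes *Lilr4b* and *Lilrb4a* rose by 1.89 and 1.13 (limma adjusted p = 2.31e-11 and 3.43e-10), and as close paralogs they may share reads. The kinase gene *Syk* and the adaptor gene *Lcp2*, which act downstream of the gamma chain, rose by 0.91 and 0.84 (limma adjusted p = 1.39e-08 and 2.89e-09).

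In the list of *Tm4sf1*, 7 of 10 tested genes were higher, 2 lower and 1 not called (median 0.41). *Itga6*, the laminin-binding integrin alpha chain, rose from 0.845 to 5.43 RPKM (1.80, limma adjusted p = 1.55e-09). The tetraspanin genes *Cd82* and *Cd63* rose by 0.87 and 0.59, and the L6 family gene *Tm4sf19* by 0.76, each with a limma adjusted p of at most 2.03e-06.

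In the granin list of *Scg2*, only 6 of 16 genes were tested, of which 3 were higher, 1 was lower and 2 were not called (median 0.17). *Vgf*, the gene of another granin-like secreted precursor, rose from 0.134 ± 0.0477 to 3.38 ± 0.86 RPKM (SD, n = 3; log2 fold change 1.93, SE 0.13, limma adjusted p = 1.11e-07). The prohormone convertase genes *Furin* and *Pcsk7* rose by 1.74 and 0.24 (limma adjusted p = 7.88e-11 and 6.81e-04). *Rab27a*, a GTPase of secretory granules, fell by 0.34 (limma adjusted p = 0.00705), a call that was lost without the filter on low values (adjusted p = 0.0713). The other 10 genes reached at most 0.633 RPKM in any library, and 5 were listed at 0 in every library.

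The list of *Cpeb1* was the only one of the 7 with more genes lower than higher: 3 of 16 tested genes were higher, 11 lower and 2 not called, with a median of -0.27. The gene of the mRNA decay factor *Zfp36* rose from 19 to 107 RPKM (log2 fold change 2.43, limma adjusted p = 1.1e-12), and its paralogs *Zfp36l2* and *Zfp36l1* fell by 0.83 and 0.78 (limma adjusted p = 9.92e-09 and 5.34e-08). *Cpeb4*, a paralog of *Cpeb1*, rose from 2.33 to 7.37 RPKM (1.33, limma adjusted p = 1.63e-08).

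In the urate list of *Urah*, 3 of 7 tested genes were higher, 1 lower and 3 not called (median -0.11). The urate exporter gene *Abcg2* rose from 1.27 to 5.47 RPKM (log2 fold change 1.51, limma adjusted p = 1.82e-08), the urate-producing oxidoreductase gene *Xdh* by 0.91 and the urate transporter gene *Slc2a9* by 0.73 (limma adjusted p = 1.09e-06 and 6.38e-07). The adenosine deaminase gene *Ada* fell by 0.95 (limma adjusted p = 1.24e-06). The other 7 genes of the list reached at most 0.463 RPKM in any library. They include *Uox*, which makes the substrate of the *Urah* product, at 0.23 RPKM in sh-*Etv5*, and *Urad*, which acts after it, listed at 0 in every library; both were named after their values were seen.

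In the list of *Hecw2*, 5 of 9 tested genes were higher, 1 lower and 3 not called (median 0.24). The related ligase gene *Nedd4l* rose from 0.144 to 1.62 RPKM (1.19, limma adjusted p = 2.24e-07), *Amotl1*, whose product is a substrate of HECW2, by 0.84 (limma adjusted p = 4.98e-07) and the adaptor gene *Ndfip2* by 0.67 (limma adjusted p = 1.67e-07). The ligase gene *Wwp1* fell by 0.37 (limma adjusted p = 2.57e-04).

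**Figure D4:**
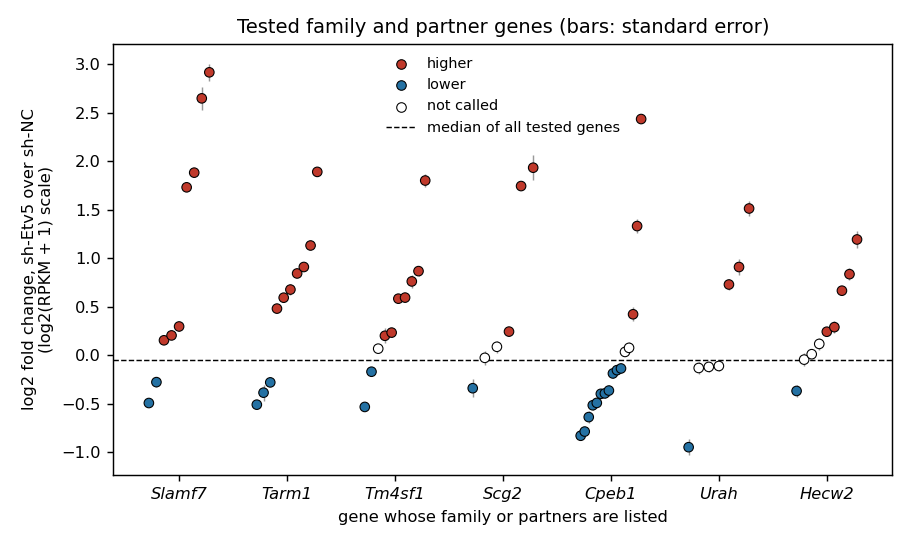
Log2 fold change of sh-*Etv5* over sh-NC, on the log2(RPKM + 1) scale, of the 67 tested family and partner genes, by the member they belong to. Bars are standard errors, red and blue mark genes called higher and lower, and the dashed line is the median of all tested genes, -0.05. Blue points outnumber red ones for *Cpeb1* only.

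Each member is also known from another cell type, so the markers of these cell types were read in every library. The macrophage list was present throughout, with 9 of 10 genes reaching 1 RPKM. Its summed level was 4460 to 4580 RPKM in sh-NC and 3550 to 3670 RPKM in sh-*Etv5*, and its highest gene, the lysozyme gene *Lyz2*, was read at 2830 and 2040 RPKM. The sum is mostly *Lyz2*, and the markers moved both ways. In the limma fit, 4 (*Lyz2*, *Csf1r*, *Cd68* and *Fcgr1*) were lower and 4 (*Adgre1*, *Itgam*, *Cd14* and *Spi1*) were higher. *Adgre1*, the F4/80 gene, rose from 2.60 to 11.3 RPKM (limma adjusted p = 1.01e-09), and *Csf1r*, the gene of the growth factor receptor of macrophages, fell from 428.5 to 243.5 RPKM (limma adjusted p = 1.9e-09).

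The neuroendocrine list, for *Scg2*, summed to 0.219 to 0.503 RPKM in sh-NC and 0.972 to 1.41 RPKM in sh-*Etv5*. In it *Chga*, *Snap25*, *Stmn2*, *Scg3*, *Ins1*, *Ins2* and *Pcsk2*, 7 of 12, were listed at 0 throughout, and *Syp* was the highest at 0.732 RPKM in sh-*Etv5*.

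The endothelial list, for *Tm4sf1* and *Hecw2*, summed to 0.611 to 0.82 RPKM in sh-NC and 1.49 to 1.67 RPKM in sh-*Etv5*, with *Emcn*, *Cldn5* and *Robo4* listed at 0. *Pecam1*, the highest of the list over all 6 libraries, was read at 0.163 and 0.703 RPKM. The hepatocyte list, for *Urah*, summed to at most 0.0264 RPKM in sh-NC and 0.219 to 0.334 RPKM in sh-*Etv5*, mostly from *Uox*, with 3 of 10 genes (*Apoa1*, *Serpina1a* and *Tat*) listed at 0. Against the 112.8 RPKM of *Urah* these sums were small.

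The germ cell list, for *Cpeb1*, summed to 0.0247 to 0.558 RPKM in sh-NC and to 0.287 to 0.532 RPKM in sh-*Etv5*, with overlapping ranges, *Gdf9* the highest over all 6 libraries and *Bmp15*, *Dazl*, *Figla* and *Zp2* listed at 0. The list of natural killer and plasma cells, for *Slamf7*, was lower in sh-*Etv5*, at 3.78 to 4.35 RPKM against 6.62 to 6.8 RPKM, and this sum was mostly *Sdc1*, read at 6.47 and 3.44 RPKM. In it *Ncr1*, *Klrd1*, *Gzma* and *Jchain* were listed at 0.

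The neutrophil list, for *Tarm1*, summed to 0.289 to 0.649 RPKM in sh-NC and to 15.6 to 19.9 RPKM in sh-*Etv5*. Nearly all of this came from *S100a8*, at 0.306 and 17.1 RPKM, while *S100a9*, *Ly6g*, *Elane*, *Retnlg* and *Cxcr2*, 5 of the 10 genes, were listed at 0 in every library. The part of *S100a8*-expressing cells in the level of *Tarm1* was not tested.

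**Figure D5:**
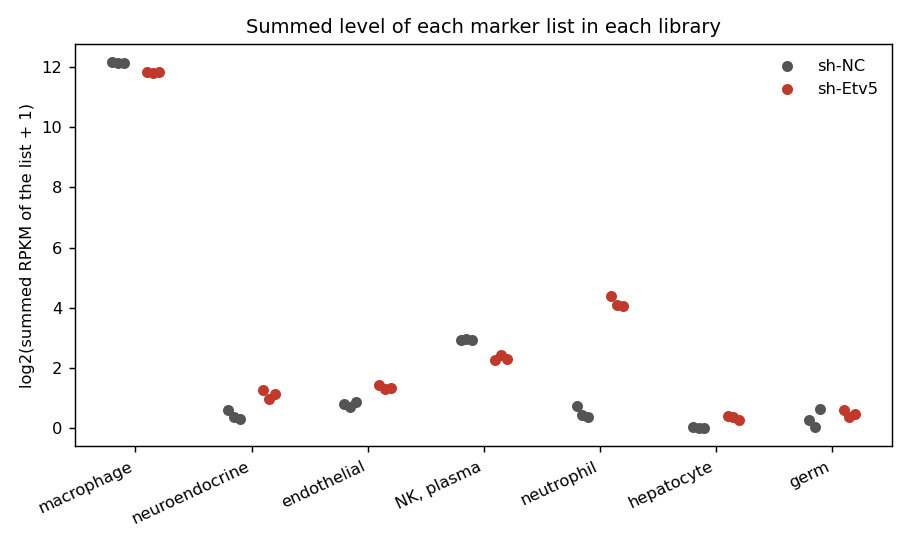
Summed RPKM of each cell type marker list in each library, as log2(sum + 1), with 3 sh-NC and 3 sh-*Etv5* libraries as points. The macrophage list lies far above the others in both groups. On this scale the neutrophil list differs most between the groups, and its sum is mostly *S100a8*.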

How the data were processed

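The authors sequenced polyA RNA of Raw264.7 cells, with libraries from the Illumina TruSeq RNA sample preparation, and deposited 1 table of RPKM values for 24786 gene symbols and 6 libraries. Per the file headers the RPKM came from coverage tracks. Per the labels the build was mm10, and the aligner, annotation and use of strand are not given in the sources used here. Depth was therefore estimated from the low values, by the most common ratio between libraries and the most common value per kb of single-exon genes, and the gene lengths are those of GENCODE M21, not of the authors.

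Groups came from the sample titles. Values were compared as log2(RPKM + 1) for genes with at least 1 RPKM in at least 3 libraries, by limma (version 3.58.1, R version 4.3.3; empirical Bayes with a trend, two-sided, no covariate, Benjamini-Hochberg over all 10738 genes, adjusted p under 0.05). The step was tested on simulated data. Fold changes on this scale understate the change of low genes. Symbols were matched to GENCODE M21 on GRCm38 (24255 of 24786), and promoters and motifs were read from RefSeq GRCm38.p6 with Python 3.11.15, NumPy 2.4.6, pandas 2.3.3 and matplotlib 3.10.9.

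The members, lists and tests were chosen with earlier results of these data known. Named were the 7 members, *Etv5*, the up to 4 called genes with the largest change of each list, the nearest gene with a row on each side of a member and called genes within 100 kb with a log2 fold change of at least 1 in size, the 2 genes nearest in pattern, the highest gene of each marker list and the 2 genes nearest each bound. Marker genes listed at 0 and the genes said to be named after their values were seen are extra, and 1 gene that the rule covers is not reported here. The alternatives were other pseudocounts (0.1 and 0.01), tests without the filter or at a mean of 5 RPKM, equal sums, quantile normalization, no trend, a replicate block, each library left out and other bounds.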

Additional observations from a re-analysis of the deposited data

How the results depend on the processing

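With pseudocounts of 0.1 and 0.01 in place of 1, the median log2 difference of the 7 members went from 1.77 to 4.64 and 7.91, because 5 of them are listed at 0 in sh-NC; leaving out single libraries gave 1.71 to 1.83. The count of genes within the bounds was 38 at a lower bound of 0.1 RPKM and 115 at 0.5 RPKM, against 63, with the same 6 members inside at both. At an upper bound of 2 RPKM it was 44, with only *Slamf7*, *Scg2*, *Tarm1* and *Urah* inside.

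Among the neighbours, 1 gene was called lower with equal sums, with quantile normalization and without the third sh-NC library (0 to 1 when single libraries were left out), against 0. *Psmd13*, which was not called, turned from -0.020 to 0.012 with quantile normalization and ranged from -0.043 to 0.018, the latter without the second sh-*Etv5* library, when single libraries were left out. With equal sums, 3124 genes were called higher and 4922 lower over the whole table, against 3575 and 4399. Same-numbered libraries did not deviate together (r = 0.074, -0.071 and -0.035), and with the replicate block 34 family and partner genes were higher, 21 lower and 11 neighbours higher, against 35, 21 and 11. *Etv5* was lower under all alternatives, with adjusted p from 6.12e-08 to 2.15e-04. Of 536 values of the 40 named tested genes, 529 kept their direction and their side of the threshold. Settings in which a gene failed the filter gave no value and are not among the 536. *Vgf*, *Itga6*, *Nedd4l* and *C330022C24Rik* dropped out of the test whenever a sh-*Etv5* library was left out. The 3 libraries a group, and for *Cpeb1* the few fragments, limit the precision.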
